A study of Mus musculus with 12 samples.

Results

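The genes described here encode 9 chains of cytokine receptors: Ifnar1 and Ifnar2, Il12rb1 and Il12rb2, Il10ra and Il10rb, Il6st, and Ifngr1 and Ifngr2. They were chosen by name, as the chains that bind type I interferon, interleukin (IL)-12, IL-10 and the cytokines of the gp130 family, with both chains of the interferon gamma receptor as controls that work without TYK2. All 9 were among the 54232 genes of the count table, and all 9 had a mean normalised count of at least 10 and so were among the 13279 genes tested. RNA was sequenced from NK cells (CD45+, CD3ε-, NK1.1+) and CD8 T cells (CD45+, CD3ε+, CD8a+) sorted from subcutaneous MC38 tumours, which grow from a mouse colon adenocarcinoma cell line, 8 to 10 days after injection into both flanks. The hosts were mice of 6 to 12 weeks that were wild type (WT, C57BL/6N), lacked TYK2 (Tyk2-/-, labelled TYK2KO, here KO) or carried the germline point mutation K923E that leaves TYK2 without kinase activity (Tyk2 K923E, here KE). Per the study's methods, both mutant lines were on a C57BL/6N background too, and the mice were sex-matched. The labels named no further treatment. The study's methods give a Tyk2-/- line without CMV-cre for the tumour work, whereas its sample list names these KO libraries TYK2CMV, so which line they came from was not settled here. Each of the 6 groups had 2 libraries of 300 cells. The labels did not say whether the 2 libraries of a group came from different mice, so every p-value below rests on a spread between libraries that may be technical. That spread was estimated over all groups in a fit, with information from other genes, and not from the compared groups alone.

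Cytokine receptors of this class have no enzyme of their own. A chain that binds the ligand pairs with a second chain, and the Janus kinases bound to their tails (TYK2, JAK1, JAK2) phosphorylate the receptor and then STAT transcription factors. TYK2 sits on IFNAR1, IL-12Rβ1 and IL-10Rβ and can be recruited by gp130, the product of Il6st, whereas the interferon gamma receptor works through JAK1 and JAK2. In NK cells and CD8 T cells, type I interferon and IL-12 raise cytotoxicity and interferon gamma output, and IL-10 receptors are present on activated cells.

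Of the 9 genes, 4 lie in 1 block on mouse chromosome 16 (GRCm38), all on the plus strand and within 192.8 kb. The order is Ifnar2 (91372783 to 91405589), Il10rb (91406164 to 91425834), Ifnar1 (91485238 to 91507441) and Ifngr2 (91547072 to 91565623). Ifnar2 and Il10rb are 0.574 kb apart. A readthrough gene, Gm21970, shares 9.92% of the exon bases of Ifnar2 and 30.8% of those of Il10rb on the same strand, so the counts of both are uncertain. Il12rb2 (chromosome 6, 67291318 to 67376188, minus strand) shares 40.0% of its exon bases with Serbp1 on the opposite strand. The labels call the libraries stranded, but the sources used here do not say whether the counting used strand, so the Il12rb2 counts are uncertain too. Il12rb1 lies on chromosome 8 (70808449 to 70821424, plus), Ifngr1 on chromosome 10 (19591949 to 19610229, plus) and Il6st on chromosome 13 (112464070 to 112510086, plus). Il10ra lies on chromosome 9 (45253837 to 45269149, minus), 24.1 megabases from Tyk2 itself.

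The promoters of 6 of the 9 genes were found in the RefSeq table (GRCm38.p6), where Il12rb1, Il10ra and Il10rb had no entry. Shown are the 250 bases before the RefSeq start of Ifngr1, the chain with the smallest p between the cell types, and of the 3 chains of the chromosome 16 block with an entry, the neighbours of Il10rb, which also passed the FDR threshold between the cell types. They are written 5′ to 3′ on the gene's own strand, all plus, at chr10:19591699-19591948, chr16:91372533-91372782, chr16:91484965-91485214 and chr16:91546809-91547058. Capitals mark a match to the interferon-gamma-activated site (GAS), TTCNNNGAA.
Ifngr1: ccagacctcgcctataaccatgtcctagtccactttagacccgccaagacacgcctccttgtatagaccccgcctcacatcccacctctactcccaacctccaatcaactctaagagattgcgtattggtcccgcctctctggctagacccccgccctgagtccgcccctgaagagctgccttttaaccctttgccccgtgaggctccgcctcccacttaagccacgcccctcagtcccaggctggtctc
Ifnar2: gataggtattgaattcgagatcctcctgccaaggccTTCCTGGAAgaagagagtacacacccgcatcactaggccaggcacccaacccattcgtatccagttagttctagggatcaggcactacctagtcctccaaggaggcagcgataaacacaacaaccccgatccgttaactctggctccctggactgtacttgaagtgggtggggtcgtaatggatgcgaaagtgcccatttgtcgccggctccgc
Ifnar1: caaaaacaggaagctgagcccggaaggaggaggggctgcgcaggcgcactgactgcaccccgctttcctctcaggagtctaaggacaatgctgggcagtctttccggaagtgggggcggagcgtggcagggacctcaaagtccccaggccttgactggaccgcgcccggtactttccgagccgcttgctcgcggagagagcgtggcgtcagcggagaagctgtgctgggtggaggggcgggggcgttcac
Ifngr2: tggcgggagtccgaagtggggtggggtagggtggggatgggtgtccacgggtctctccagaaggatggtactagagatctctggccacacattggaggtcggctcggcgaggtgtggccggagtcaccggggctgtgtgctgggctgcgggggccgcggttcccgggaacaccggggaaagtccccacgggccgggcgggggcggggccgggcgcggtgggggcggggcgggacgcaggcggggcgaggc
The GAS letters, which read the same on both strands apart from the spacer, were found in the windows of 2 of the 6 genes, Ifnar2 and Il12rb2, against 7.02% of the 32851 windows of the table. The core letters of the interferon-stimulated response element, GAAA, any 2 bases and GAAA on either strand, were found in 0 of the 6 windows and in 2.98% of all windows. With 0 matches of the response element in the 6 windows, no overlap with a GAS match was possible. The guanine and cytosine content of the windows ran from 54.0% in Ifnar2 to 74.0% in Ifngr2 among those shown.

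Total counts per library ranged from 10378761 to 14732882, and a count of 3, taken as the floor, corresponded to 0.218 to 0.276 CPM. CPM are reads of a gene scaled to the library total after its adjustment by a TMM normalisation factor of 0.916 to 1.07. Cd8a was at 2825 to 4086 CPM in CD8 and 2.70 to 4.52 CPM in NK libraries, and Ncr1 at 843 to 2298 CPM in NK and 1.03 to 1.99 CPM in CD8 libraries, so both labelled cell types showed their defining markers. Tyk2 was at 56.3 to 119 CPM in NK and 46.7 to 86.1 CPM in CD8 libraries. The KO and WT ranges overlapped in both cell types, and the NK KE libraries (82.3 and 119 CPM) lay above NK WT (60.8 and 68.9 CPM). The total over the gene did not tell KO from WT libraries, and KO below means the libraries so labelled. The NK libraries differed in transcripts of other cells. Summed over 12 macrophage and monocyte markers, the 2 WT libraries held 16497 and 14127 CPM with 12 of 12 markers above the floor. KO 1 held 7188 CPM with 10 of 12, KO 2 24.6 CPM with 6, KE 1 56.0 CPM with 6 and KE 2 401 CPM with 10. In CD8 libraries the sum was 53.1 to 588 CPM. Over 8 dendritic cell markers the NK sums were 2699 and 6046 CPM in WT, 4865 and 223 CPM in KO and 59.0 and 363 CPM in KE, carried by H2-Aa, H2-Ab1 and Cd74, with Flt3, Clec9a, Cd209a and Siglech at 0 in all 6. Over 6 T cell markers they were 59.6 and 108 CPM in WT, 84.9 and 313 CPM in KO and 221 and 336 CPM in KE, against 6284 to 9218 CPM in CD8 libraries. Over 6 NK cell markers the NK libraries held 3680.2 to 4440.4 CPM (WT), 4900 to 6610.1 CPM (KO) and 6282 to 6817 CPM (KE). The part of these differences in the NK genotype comparisons below was not tested. Of the defining markers, Cd14 was at 0 in NK KO 2, NK KE 1 and CD8 KO 1, Adgre1 in NK KE 1 and CD8 KE 2, Mrc1 in NK KO 1 and CD8 KE 2, and Fcgr1 in CD8 WT 2. In these bulk libraries, fewer cells of a type and less RNA per cell cannot be told apart.

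Within a cell, Ifngr1 was the most abundant of the 9 transcripts, on a scale of CPM per kb of exon. It reached 1303 ± 165 (SD, n = 6) in NK and 828 ± 162 in CD8 libraries. Its partner Ifngr2 stood near the other end, at 7.19 ± 11.9 in NK and 0.174 ± 0.251 in CD8 libraries. Both chains of the control receptor thus bracketed the TYK2-coupled chains in CD8 libraries.

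Il10rb, the signalling chain shared by IL-10, IL-22 and interferon lambda receptors, ranked next with 115 ± 8.83 CPM per kb in NK and 69.5 ± 14.9 in CD8 libraries. Il10ra, which binds IL-10, followed at 61.1 ± 22.1 and 64.7 ± 59.7. In CD8 libraries its place depended on the genotype. At 140 ± 22.3 CPM per kb (SD, n = 2) in WT it stood above Il10rb (57.1 ± 10.6), at 35.1 ± 2.73 in KO below it (64.5 ± 5.87), and at 19.6 ± 17.2 in KE below Il10rb, Ifnar1, Il12rb2 and Ifnar2. The NK order varied with the genotype too. In KO, Il10ra at 35.1 ± 0.855 CPM per kb lay below Ifnar1 (43.6 ± 2.17) and Ifnar2 (42.2 ± 0.83), and in WT, the mean of Ifngr2 (18.9 ± 16.9) lay above that of Il12rb1 (11.4 ± 0.104). In NK libraries the order continued with Ifnar1 (55.0 ± 9.63), Ifnar2 (42.5 ± 3.61), Il12rb2 (33.9 ± 15.9) and Il12rb1 (11.0 ± 2.64), and in CD8 libraries with Il12rb2 (42.2 ± 20.9), Ifnar1 (41.5 ± 14.7), Ifnar2 (20.9 ± 7.70) and Il12rb1 (8.16 ± 10.5). Neighbours in that order from Il10ra to Il12rb2 in NK libraries, and from Il10rb to Il12rb1 in CD8 libraries, did not differ beyond their SDs. Il6st, which encodes gp130, was low, at 0.647 ± 1.09 in NK and 3.44 ± 2.44 in CD8 libraries.

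**Figure D1:**
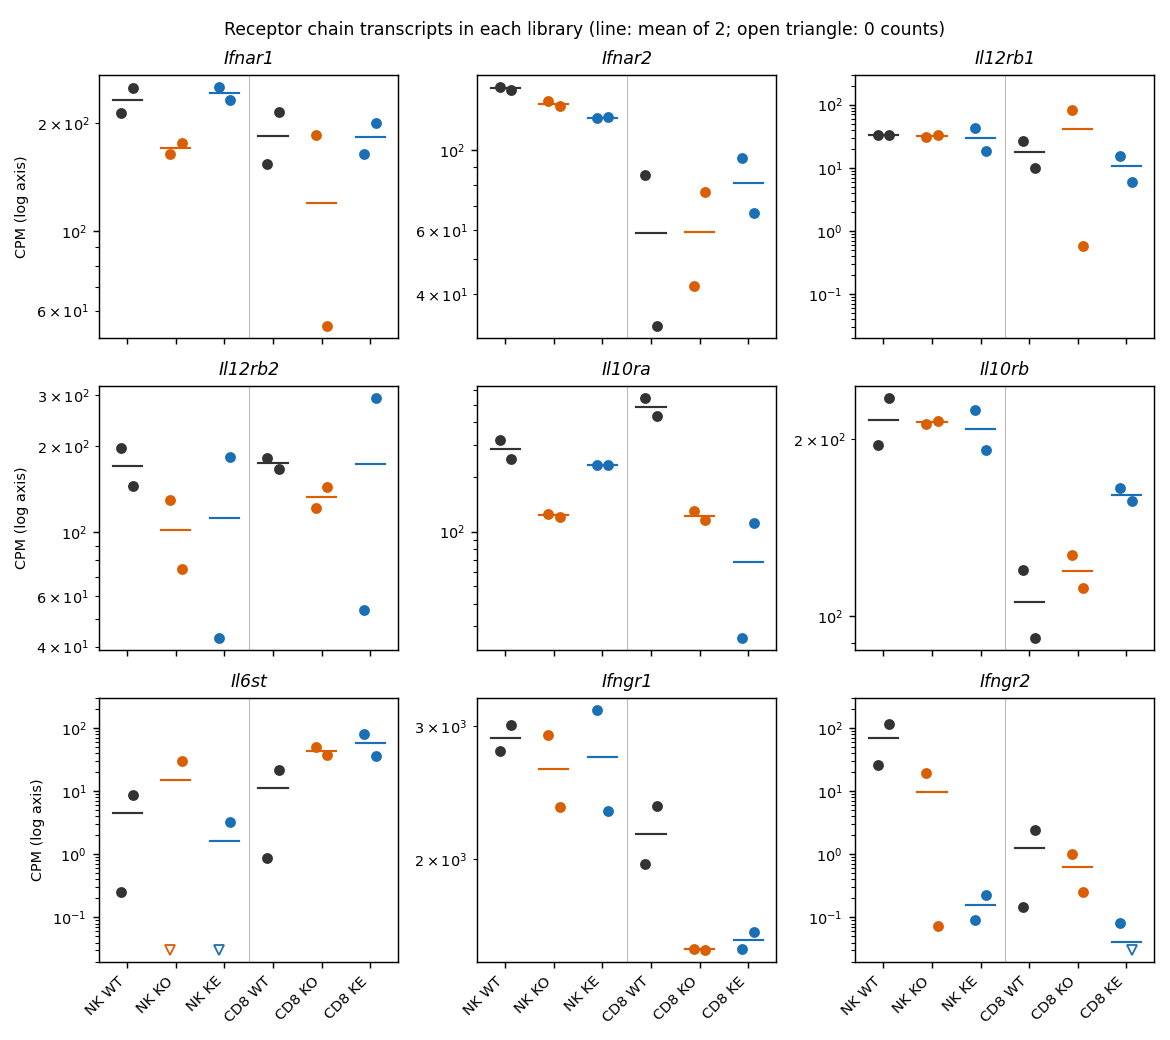
CPM of each receptor chain in the 12 libraries, on log axes that differ between panels, by cell type and genotype. Points are libraries, lines are the means of 2 libraries and open triangles are libraries with 0 counts. Il10ra separated WT from mutant CD8 libraries (433 and 543 against 26.0 to 129 CPM), and Il6st, Il12rb1 and Ifngr2 differed between the 2 libraries of a group by up to orders of magnitude.

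The first comparison asked which chains differed between the cell types. By edgeR's quasi-likelihood test with Benjamini-Hochberg adjustment over all genes tested (FDR), 0 of the 9 chains passed the rule of an FDR under 0.05 and a change of 1 or more on the log2 scale in either direction, where 4.47% of all genes did. At any fold, 2 of 9 passed the FDR threshold, Ifngr1 and Il10rb, against 5.33% of all genes. At an unadjusted p under 0.05 there were 4 of 9, against 19.3% of all genes. DESeq2 placed 4 chains past the FDR threshold (Ifngr1, Il10rb, Ifnar2 and Ifngr2), where 14.2% of the genes with an adjusted p were, and 2 of the 4, Ifnar2 and Ifngr2, with the fold as well, where 12.4% were.

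Ifngr1, the ligand-binding chain for interferon gamma, was higher in NK libraries. It ranged from 2313 to 3148 CPM (median 2848) in 6 NK libraries and from 1519 to 2348 CPM (median 1563) in 6 CD8 libraries. The ranges met only through CD8 WT 2, which lay above NK KO 2 and NK KE 2. This was a log2 fold change of 0.67 (SE 0.10, edgeR FDR 0.00369). It was 0.42 among WT libraries alone (FDR 0.461), 0.79 among KO (FDR 0.0895) and 0.81 among KE libraries (FDR 0.0875).

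Il10rb was also higher in NK libraries, at 192 to 235 CPM (median 214) against 91.7 to 165 CPM (median 123). Every NK library lay above every CD8 library. NK exceeded CD8 by a log2 fold change of 0.75 (SE 0.15, edgeR FDR 0.0193), and the FDR ran from 5.59e-04 to 0.682 over the alternatives. The call was lost without NK WT 2 (FDR 0.0638), NK KE 1 (0.0624), CD8 WT 2 (0.0564), CD8 KO 2 (0.0605) or CD8 KE 2 (0.0501), with no filter on low counts (0.0687) and within each genotype alone.

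Ifnar2, the high-affinity chain of the type I interferon receptor, showed the same separation of all libraries. NK libraries held 122 to 149 CPM (median 134) and CD8 libraries 32.7 to 94.7 CPM (median 71.8). Its log2 fold change of 1.03 (SE 0.28) missed the edgeR threshold with an FDR of 0.0623. The FDR was 0.0226 without CD8 WT 1 and 0.0108 by DESeq2, the lowest of a range up to 0.734 over the alternatives. Ifnar2 and Il10rb were thus the 2 of 9 chains with every NK library above every CD8 library, against 2.03% of all genes, and 0 of 9 had the opposite order, against 2.83%.

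Ifnar1, whose tail carries TYK2, was at 164 to 253 CPM in NK and 54.3 to 215 CPM in CD8 libraries, with overlapping ranges and a log2 fold change of 0.42 (SE 0.27, edgeR FDR 0.475). Il12rb1, the TYK2-binding chain of the IL-12 and IL-23 receptors, spanned 18.3 to 41.9 CPM in NK and 0.581 to 82.4 CPM in CD8 libraries. Il12rb2, the JAK2-binding chain, spanned 42.9 to 197 and 53.6 to 293 CPM. The 95% intervals of their log2 differences between NK and CD8, -1.25 to 2.57 and -1.30 to 0.62, left room for changes in either direction.

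Il6st was scattered: 0, 0, 3, 43, 112 and 413 counts in the 6 NK libraries, and 12, 297, 454, 492, 654 and 970 counts in the CD8 libraries. A count of 0 allows up to 0.235 CPM in NK KO 1 and 0.276 CPM in NK KE 1. NK and CD8 libraries overlapped, and the log2 fold change of -2.67 (95% interval -6.01 to 0.66) had an edgeR FDR of 0.397.

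**Figure D2:**
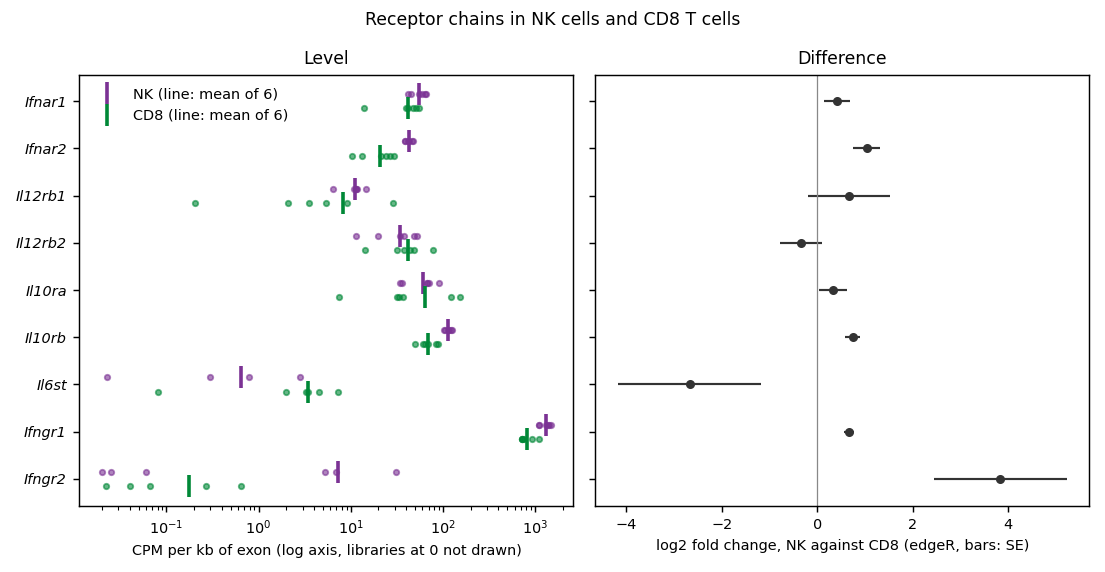
Left, level of each chain in CPM per kb of exon on a log axis, with 6 libraries of each cell type as points and their mean as a line (libraries at 0 not drawn). Right, edgeR log2 fold change of NK against CD8 libraries with its SE, where Ifngr1 (0.67) and Il10rb (0.75) passed the FDR threshold and the bars of Il6st and Ifngr2 were the widest.

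Ifngr2, the chain that carries JAK2 to the interferon gamma receptor, was high in some NK libraries and at the floor in others. The WT libraries held 307 and 1481 counts (25.7 and 114 CPM) and KO 1 held 252 (19.7 CPM), whereas KO 2, KE 1 and KE 2 held 1, 1 and 3 counts. The CD8 libraries held 2 and 33 counts (WT), 13 and 3 counts (KO), and 1 and 0 counts (KE). The 3 NK libraries with Ifngr2 were the 3 with macrophage and monocyte sums of 7188 CPM or more, and the part of those transcripts in this result was not tested. The log2 fold change of 3.84 between NK and CD8 (SE 1.40, edgeR FDR 0.158) was -0.57 when only the mutant groups were compared with NK KO 1 left out, an alternative chosen after the values were seen. The corresponding value was 0.72 for Ifngr1 (FDR 0.0287), 0.61 for Il10rb (FDR 0.216) and 0.88 for Ifnar2 (FDR 0.329).

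**Figure D3:**
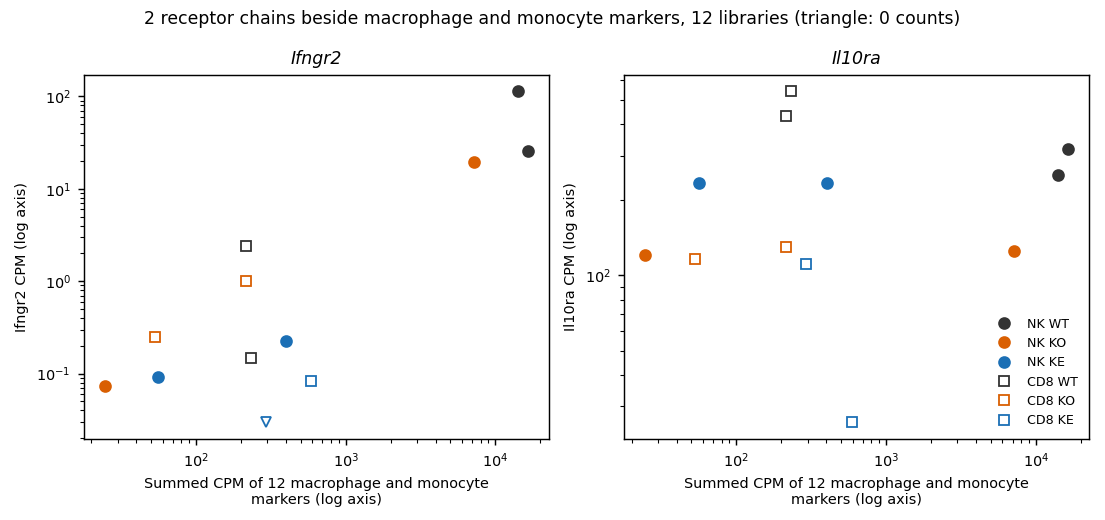
Ifngr2 and Il10ra, in CPM, against the summed CPM of 12 macrophage and monocyte markers in each of the 12 libraries, all axes logarithmic (filled circles NK, open squares CD8, triangle 0 counts). The 3 NK libraries with the highest marker sums (7188, 14127 and 16497 CPM) hold 19.7 to 114 CPM of Ifngr2 and all others at most 2.39 CPM, while Il10ra shows no such order.

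**Figure D4:**
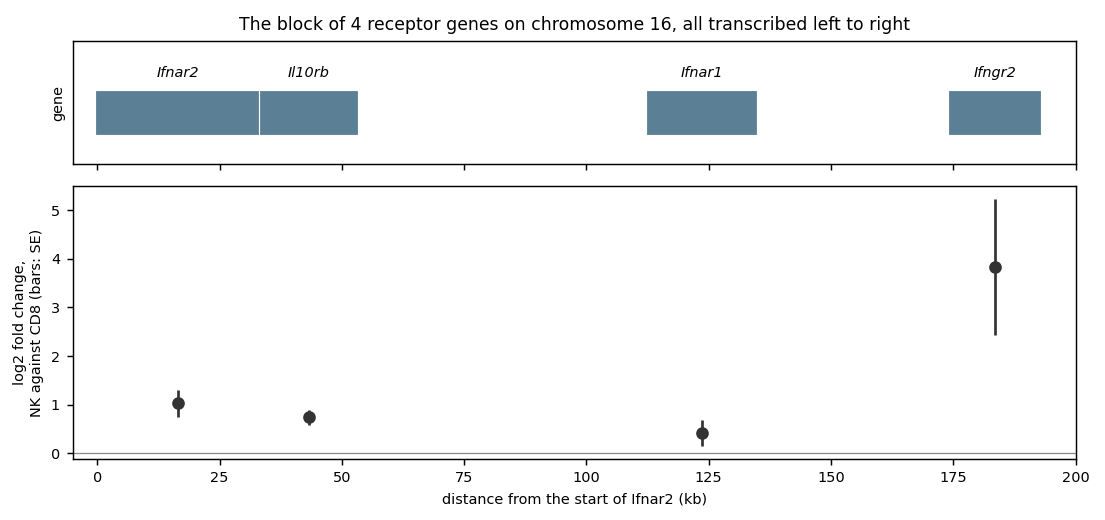
Top, the 4 receptor genes of chromosome 16 drawn to scale by distance from the start of Ifnar2 in kb. Below, the log2 fold change of NK against CD8 libraries with its SE at the middle of each gene: 1.03 for Ifnar2, 0.75 for Il10rb, 0.42 for Ifnar1 and 3.84 for Ifngr2, the last of which turned to -0.57 among mutant groups without NK KO 1.

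The second comparison asked whether receptor transcripts depended on TYK2 or on its kinase activity in NK cells. By edgeR 0 of 9 chains passed in KO against WT, in KE against WT and in KO against KE, where 0% of all genes passed, and 0 of 9 when both mutants were pooled, where 0.0301% did. At an unadjusted p under 0.05 there was 1 of 9 in each: Il10ra in KO (6.30% of all genes), Ifngr2 in KE (6.01%), Ifngr2 between KO and KE (3.80%) and Ifngr2 in both mutants together (9.04%). DESeq2 called 0 chains in KO against WT and between KO and KE, and 1, Ifngr2, in KE and in both mutants together. It called 3.30% of the genes with an adjusted p in KO, 1.67% between KO and KE, 3.39% in KE and 3.82% in both mutants. The KO and KE comparisons share their WT libraries.

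For Ifngr1 and Il10rb the intervals were the narrowest. Ifngr1 measured 2781 and 3006 CPM (WT), 2915 and 2344 CPM (KO) and 3148 and 2313 CPM (KE), and its log2 fold change over both mutants lay between -0.45 and 0.23 with 95% confidence. Il10rb measured 196 and 235 CPM (WT), 212 and 215 CPM (KO) and 224 and 192 CPM (KE), with an interval of -0.54 to 0.48. For these 2 transcripts the mutant and WT ranges overlapped.

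Ifnar1 held 214 and 250.5 CPM in WT, 164 and 176 CPM in KO and 253 and 232 CPM in KE NK libraries. KO lay below both other groups, with a log2 fold change against WT of -0.45 (SE 0.46). Ifnar2 held 149 and 146 CPM (WT), 136 and 132 CPM (KO) and 122 and 123 CPM (KE). The 3 groups of Ifnar2 did not overlap, but the differences were small beside the SE that the fit assigned them (-0.14 in KO, SE 0.48, and -0.27 in KE, SE 0.48). That SE draws on the spread in all 6 groups, not on the NK libraries alone. The higher Ifnar2 library exceeded the lower by a ratio of 1.01 to 1.03 in NK groups and 1.41 to 2.61 in CD8 groups.

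Il12rb1 was at 32.6 and 33.0 CPM (WT), 31.1 and 33.3 CPM (KO), and 41.9 and 18.3 CPM (KE). Il12rb2 was at 197 and 145 CPM (WT), 130 and 74.4 CPM (KO), and 42.9 and 182 CPM (KE). The genotypes overlapped in Il12rb1. In Il12rb2 both KO libraries lay below both WT libraries, with a log2 fold change of -0.74 (SE 0.75), and the KE libraries overlapped WT.

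In NK cells Il10ra measured 319 and 250.3 CPM (WT), 125 and 121 CPM (KO) and 233 and 233 CPM (KE). Both KO libraries lay below all others, and both KE libraries just under WT. The log2 fold change was -1.21 in KO (SE 0.51, edgeR unadjusted p = 0.0373, FDR 0.766) and -0.29 in KE (SE 0.50, FDR 1). The macrophage and monocyte sums of KO 1 and KO 2 were 7188 and 24.6 CPM, and their part in this result was not tested.

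Ifnar2, Il10ra and Ifngr2 were the chains whose mutant NK libraries all lay below WT. That made 3 of 9, against 10.8% of all genes, and 0 of 9 lay above WT throughout, against 7.08%. Over both KE libraries there were 4 counts of Ifngr2 against 1788 in WT, a ratio of WT to KE of 434 (95% counting interval 169 to 1595, counting error only). Of the WT counts 1481 came from WT 2, and the ratio was 156 without it and 691 without WT 1. The corresponding ratio of WT to KO was 7.46 (6.54 to 8.55), 2.67 without WT 2 and 11.9 without WT 1. In KO, 252 of the 253 counts came from KO 1, the KO library rich in macrophage transcripts. Without KO 1 the ratio was 971 (174 to 38374), on 1 KO count, and the fitted log2 difference between KO and KE changed sign, from 5.87 to -1.01.

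**Figure D5:**
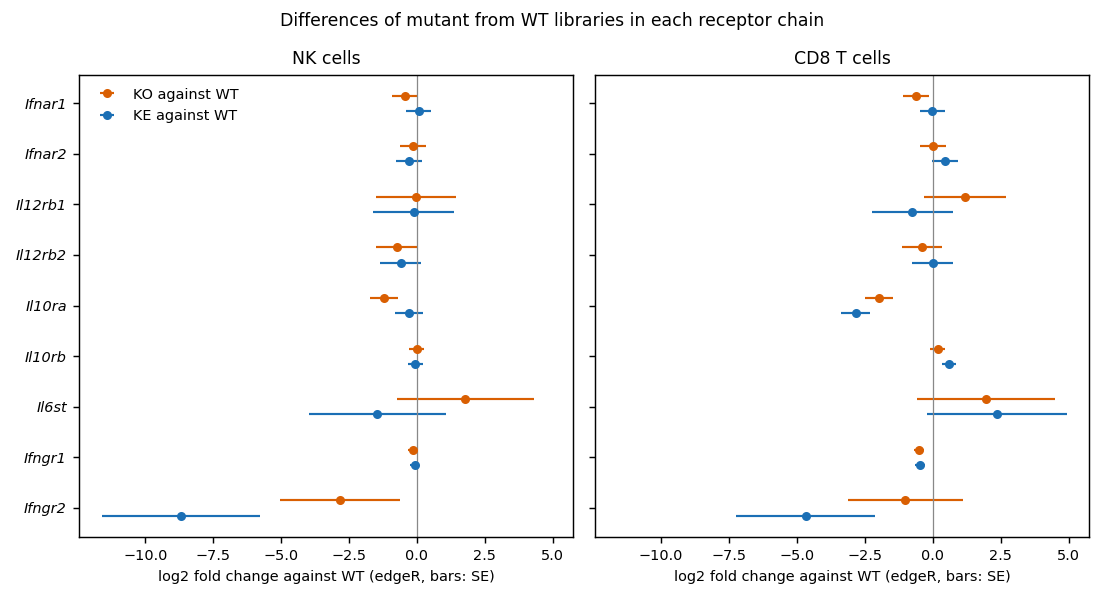
edgeR log2 fold changes of KO (orange) and KE (blue) against WT for each chain, with SE, in NK cells (left) and CD8 T cells (right). Il10ra in CD8 T cells (-1.99 in KO and -2.83 in KE) lies farthest from 0 relative to its SE; the Ifngr2 values rest on groups with very few counts and are not bounds.

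In CD8 T cells the same question was asked of the same chains. By edgeR 0 of 9 passed in KO against WT (0.0527% of all genes), in KE against WT (0.0828%), between KO and KE (0%) and in both mutants against WT (0.203%). At an unadjusted p under 0.05 there were 2 of 9 in KO, Il10ra and Ifngr1 (4.82% of all genes), and 3 of 9 in KE, Il10ra, Ifngr1 and Il10rb (5.56%). Over both mutants Il10ra and Ifngr1 reached that level, 2 of 9 (6.72%), and between KO and KE 0 of 9 did (3.62%). DESeq2 called 1 chain, Il10ra, in KO (2.04% of the genes with an adjusted p), in KE (2.94%) and over both mutants (2.84%), and 0 between KO and KE (1.37%).

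Il10ra stood at 543 and 433 CPM in WT CD8 libraries. It was at 129 and 116 CPM in KO and at 26.0 and 111 CPM in KE. All 4 mutant libraries lay below both WT libraries, and the lowest WT value was more than 3 times the highest mutant value. The log2 fold change was -1.99 in KO (SE 0.52, edgeR unadjusted p = 0.00309, FDR 0.581) and -2.83 in KE (SE 0.54, unadjusted p = 3.18e-04, FDR 0.132). Over both mutants it was -2.41 (SE 0.42, 95% interval -3.34 to -1.49, unadjusted p = 1.56e-04), with an FDR of 0.0646 that missed the threshold.

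The Il10ra call depended on the test, the filter and the KE libraries. Over all alternatives the FDR ran from 0.00105 to 1 in KO, from 6.74e-08 to 0.668 in KE and from 1.22e-09 to 0.474 over both, each lowest with no filter on low counts. By DESeq2 the FDR was 0.0113 in KO, 1.35e-05 in KE and 2.11e-05 over both. In edgeR the KO comparison passed without CD8 KE 1 (FDR 0.0368) or KE 2 (FDR 0.0358), the KE comparison without KE 2 (log2 fold change -4.23, FDR 0.00537), and both mutants together without KE 1 (FDR 0.0121) or KE 2 (FDR 0.00393). The macrophage and monocyte sums, 232 and 215 CPM in WT and 53.1 to 588 CPM in the mutants, overlapped between the genotypes, and their part in this result was not tested.

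The difference was smaller for Ifngr1, which was at 1973 and 2348 CPM in WT, 1522 and 1519 CPM in KO, and 1520 and 1603 CPM in KE CD8 libraries. Every mutant library lay below every WT library. The log2 fold change was -0.51 in KO (SE 0.18, edgeR FDR 0.887) and -0.47 in KE (SE 0.18, FDR 0.792). Il10ra and Ifngr1 were thus 2 of 9 chains with that order, against 7.49% of all genes.

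Il10rb, the partner of Il10ra, held 119 and 91.7 CPM (WT), 127 and 112 CPM (KO) and 165 and 157 CPM (KE) in CD8 libraries. Both KE libraries lay above the other 4, with a log2 fold change against WT of 0.61 (SE 0.27, edgeR unadjusted p = 0.0459, FDR 0.792).

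Il6st was the 1 chain of 9 with every mutant CD8 library above WT, against 6.79% of all genes. It was at 0.890 and 21.5 CPM (WT), 50.1 and 37.7 CPM (KO) and 80.2 and 36.0 CPM (KE). The WT libraries were far apart, and the log2 fold change over both mutants, 2.17, had an SE of 2.36 (edgeR FDR 0.988).

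Ifnar1 was at 154 and 215 CPM in WT, 186 and 54.3 CPM in KO and 164 and 201 CPM in KE CD8 libraries. Ifnar2 was at 85.2 and 32.7, 42.2 and 76.5, and 94.7 and 67.2 CPM. For both chains of the type I interferon receptor the 3 genotypes overlapped.

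Il12rb1 was at 26.1 and 10.1 CPM in WT, 82.4 and 0.581 CPM in KO (1076 and 7 counts) and 15.5 and 6.01 CPM in KE. Il12rb2 was at 182 and 166 CPM, 121 and 144 CPM, and 53.6 and 293 CPM, with KO below WT and KE on both sides. The 2 CD8 KE libraries differed more in Il12rb2 than any KE library did from WT, and KO 2 was the lowest of the 6 CD8 libraries in both Ifnar1 and Il12rb1. Such gaps between libraries of 1 group widened the SE of the IL-12 receptor chains, which was 1.30 for Il12rb1 and 0.64 for Il12rb2 over both mutants. The 95% intervals of the log2 fold changes, -2.66 to 3.10 and -1.63 to 1.23, left room for changes in either direction.

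Whether a mutant effect differed between NK and CD8 cells was tested as an interaction. For KO, 0 of 9 chains passed by edgeR (0.00753% of all genes), and 0 of 9 reached an unadjusted p under 0.05 (5.29%). For KE, 0 of 9 passed (0% of all genes), and 1 of 9, Il10ra, reached the unadjusted level (6.19%). The log2 fold change of Il10ra in KE against WT was -0.29 in NK and -2.83 in CD8 cells, a difference of 2.55 (NK minus CD8, SE 0.72, edgeR unadjusted p = 0.0051, FDR 0.628). DESeq2 called 0 chains for KO (1.63% of genes) and Il10ra for KE (FDR 0.0346, 2.42% of genes).

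Transcripts downstream of the receptors gave context. Of 20 type I interferon targets, all measured, 20 had a log2 fold change below 0 in the mutants of each cell type, as 52.3% of all genes did in NK and 49.3% in CD8 cells. Their medians were -2.33 in NK and -3.12 in CD8 cells, where the median of all genes was -0.05 and 0. With groups at the floor set to it, the medians were -2.30 and -3.14. In CD8 cells 3 of 20 passed by edgeR, against 0.203% of all genes, and in NK cells 0 of 20, against 0.0301%. At an unadjusted p under 0.05 there were 17 in CD8 cells, against 6.72% of all genes, and 14 in NK cells, against 9.04%. DESeq2 called 10 in CD8 cells, against 2.84% of genes, and 7 in NK cells, against 3.82%. The same all-gene shares apply to each list below. The NK mutants also held less of the macrophage and monocyte markers (24.6 to 7188 CPM summed, against 14127 and 16497 CPM in WT), 11 of 12 of which were lower at an unadjusted p under 0.05. The part of such transcripts in the NK values of this and the following lists was not tested.

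Xaf1, a proapoptotic interferon target, was at 359 to 377 CPM in WT and 51.2 to 93.9 CPM in mutant CD8 libraries (log2 fold change -2.32, SE 0.33, edgeR FDR 0.0258). Zbp1, a sensor of nucleic acids, was at 358 to 362 and 64.0 to 95.1 CPM (-2.11, SE 0.29, FDR 0.0258). The third, Oasl2, a member of a gene family with similar copies, was at 12.4 to 56.1 CPM in WT and under the floor in each of the 4 mutant CD8 libraries (FDR 0.00585), and at 23.6 to 48.4 CPM in mutant NK libraries. Oasl2 was also the 1 of 20 type I interferon targets called between NK and CD8 cells, where 4.47% of all genes were (edgeR FDR 2.46e-04). Its levels in WT were 129 to 171 CPM in NK and 12.4 to 56.1 CPM in CD8 libraries.

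Interferon gamma signals without TYK2. Of 15 of its targets, 14 had a log2 fold change below 0 in the mutants of each cell type, where 52.3% of all genes in NK and 49.3% in CD8 cells did, with medians of -0.83 and -1.48. Gbp7, a guanylate-binding protein, was the 1 of 15 called by edgeR, in CD8 cells, at 322 to 409.6 CPM in WT and 114 to 155 CPM in the mutants (-1.48, SE 0.24, FDR 0.0487). Many of these genes respond to type I interferon too. At an unadjusted p under 0.05 there were 8 of 15 in CD8 cells (6.72% of all genes), and DESeq2 called 4. In NK cells edgeR called 0 of 15, with 3 at an unadjusted p under 0.05 (9.04% of all genes), and DESeq2 called 2.

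Of 8 genes that IL-12 induces, 0 passed in the mutants of either cell type by edgeR, with 1 at an unadjusted p under 0.05 in NK and 2 in CD8 cells. DESeq2 called 1 in each. Gzmb, the protease granzyme B, spanned 4886 to 7001 CPM in WT and 890.2 to 1962 CPM in mutant NK libraries, and 9097 to 12748 and 1045 to 4945 CPM in CD8 libraries. Its log2 fold change was -1.99 in NK cells (SE 0.48, edgeR FDR 0.218) and -1.97 in CD8 cells (SE 0.48, FDR 0.274). Ifng itself was at 93.3 to 96.4 CPM in WT and 29.9 to 240 CPM in mutant NK libraries, and at 158 to 205 and 351 to 604 CPM in CD8 libraries. Prf1, which encodes perforin, was higher in NK than in CD8 libraries (log2 fold change 1.46, SE 0.29, edgeR FDR 0.0172).

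Targets of IL-10 and gp130 cytokines, of which 5 of 6 were tested, gave 0 calls by edgeR or DESeq2 against WT in either cell type, with 0 at an unadjusted p under 0.05. Junb, a subunit of the AP-1 transcription factor, was at 319 to 358 CPM in WT and 245 to 397 CPM in mutant CD8 libraries. Socs3, the feedback inhibitor that binds gp130, spanned 12.5 to 46.0 and 11.5 to 53.7 CPM.

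Among 7 regulators that act at these receptors, edgeR called 0 in the mutants of either cell type, with 1, Usp18, at an unadjusted p under 0.05 in both, and DESeq2 called 1 in each. Usp18, which binds IFNAR2 and dampens it, was at 241 to 316 CPM in WT and 0.146 to 12.7 CPM in mutant CD8 libraries, and at 277 to 281 and 7.90 to 69.4 CPM in NK libraries. Ptpn6, the most abundant, held 296 to 535 CPM in WT and 347 to 836 CPM in mutant CD8 libraries. The 4 Janus kinases gave 0 calls and 0 at an unadjusted p under 0.05 against WT over both mutants, also by DESeq2. Jak1 was at 990.2 to 1215 CPM in WT and 1064 to 1586 CPM in mutant NK libraries, and at 592 to 597 and 524 to 779 CPM in CD8 libraries.

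Partner chains were sparse. Of 14 listed, 7 were tested, and edgeR called 0 in any comparison. In mutant NK libraries 5 of the 7 were lower at an unadjusted p under 0.05 (9.04% of all genes), and DESeq2 called 1 (3.82% of genes). Il27ra, the IL-27 chain that pairs with gp130, was at 146 to 198 CPM in WT and 55.8 to 108 CPM in mutant NK libraries, and at 93.7 to 187 and 150.1 to 271 CPM in CD8 libraries. Il4ra was at 69.3 to 77.2 and 34.4 to 75.2 CPM in NK libraries. Il6ra, Il13ra1, Il20rb and Lifr, the other 4 at that level, were at most at 56.4 CPM in WT and 1.57 CPM in mutant NK libraries. Both NK KO libraries, with macrophage and monocyte sums of 7188 and 24.6 CPM, held 0 CPM of Il6ra, Il13ra1 and Il20rb. They held at most 0.0739 CPM of Lifr. The part of macrophage and monocyte transcripts in these values was not tested.

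Few ligand transcripts were present. Of 12 ligands, 6 were tested and edgeR called 0 over both mutants of either cell type. Osm, the gp130 ligand oncostatin M, was at 0 and 0.148 CPM in WT and 0.0765 to 32.8 CPM in mutant CD8 libraries, where its fitted change rests on those WT counts. DESeq2 called 1 ligand in CD8 cells and 0 in NK cells. Ifnb1, Il6, Lif, Il22, Il23a and Il27 had 0 counts in all 12 libraries.

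Across the 12 libraries, the genes most like each chain by Pearson's r of log2 CPM were named as a description, since the points share cell type and genotype. Il10ra was nearest to Gm8995 (r = 0.92), Cd274 (0.89), which encodes PD-L1, and Gsdmd (0.89). Ifngr1 was nearest to Gimap6 (0.95), Klrb1f and Trdc (both 0.94), and Ifngr2 to Il1rn, Clec5a and Ctss (all 0.94). Il10rb followed Rnf130 (0.96), Aoah (0.95) and Fcer1g (0.94), and Ifnar2 followed Numb (0.95), Mef2a (0.94) and Smad3 (0.94).

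For the remaining chains the nearest genes were Uap1l1 (0.95) and Ddx41 (0.92) for Ifnar1, Pspc1 (0.94), Cd1d1 (0.90) and Alg2 (0.89) for Il12rb1, BC051226 (0.91), Mlec and Alg1 (both 0.88) for Il12rb2, and Sik1 (0.95), Gtf3c4 (0.94) and Gm33782 (0.90) for Il6st. Partner chains of 1 receptor were not close to each other. Over the 12 libraries r was 0.16 between Ifnar1 and Ifnar2, -0.17 between Il10ra and Il10rb, -0.29 between Il12rb1 and Il12rb2, and 0.58 between Ifngr1 and Ifngr2. Ifnar2 and Il10rb, which adjoin on chromosome 16 and share exon bases with Gm21970, reached 0.87.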

How the data were processed

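Per the labels and methods, the authors trimmed single-end Smart-seq2 reads (Trimmomatic), mapped them with STAR to GRCm38 and used summarizeOverlaps to count uniquely aligned reads in exons. The deposited values are raw read counts per gene, neither normalised nor pooled. Reads that map to several places are missing, so genes with similar copies are undercounted, and amplifying the RNA of few cells widens the spread between libraries. Count floors and the intervals of count ratios cover counting error only, whereas the intervals of log2 fold changes come from the edgeR SE and include the spread between libraries.

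One model with 6 group means over 12 libraries was fitted in edgeR 4.0.16 (R 4.3.3) with TMM normalisation and the robust two-sided quasi-likelihood F-test, for 13279 genes with a mean normalised count of at least 10, and was tested on simulated data. The SE follows from the log2 fold change and F. DESeq2 1.42.0, other normalisations and filters and fits without single libraries were alternatives. Exon lengths and coordinates came from GENCODE on GRCm38. The receptor chains, gene lists and tests were chosen with earlier results of these data known. Named genes are the 9 chains, list members that passed a test or were abundant, and the 3 genes nearest each chain, of which 1 is not reported here. Usp18, Gzmb, Ifng, Osm and the partner chains were named after their values were seen.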

Additional observations from a re-analysis of the deposited data

How the results depend on the processing

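By edgeR no chain passed in any comparison as reported, and the number that did depended on the test and the filter. DESeq2 called 1 chain in NK KE and in NK mutants against WT (Ifngr2), 1 in CD8 KO, CD8 KE and CD8 mutants against WT and 1 in the KE interaction (Il10ra), and 2 between NK and CD8 (Ifnar2, Ifngr2). With no filter on low counts edgeR called 1 in NK mutants, 1 each in CD8 KO, CD8 KE, CD8 mutants and the KE interaction, and 3 between NK and CD8. Scaling by total counts only gave 1 between NK and CD8 (Ifnar2). The number of chains past the FDR threshold at any fold between NK and CD8, 2 as reported, was 4 by DESeq2, 4 with no filter, 0 among WT, KO or KE libraries alone, and 1 (Ifngr1) among mutant groups without NK KO 1, where the Ifngr2 difference turned to -0.57. The last setting was chosen after seeing the data. The cause of these shifts was not tested. The single-genotype values came from the fit of all 12 libraries, comparing 2 NK with 2 CD8 libraries.

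Leaving out 1 library gave 0 to 1 chains called in CD8 KO, CD8 KE and CD8 mutants against WT and between NK and CD8, and 1 to 3 past the FDR threshold at any fold. The Ifngr2 difference between NK KO and KE ranged from -1.01 to 6.85. With the replicate number as a block, edgeR called 0 chains in each comparison and 2 at any fold between NK and CD8, as without it. Over all genes the block moved the calls from 27 to 17 in CD8 mutants, 11 to 4 in CD8 KE, 7 to 3 in CD8 KO, 4 to 1 in NK mutants, 594 to 482 between NK and CD8, and 1 to 0 in the KO interaction. The labels linked libraries of different groups only by this number, and whether they shared a mouse or a sort day is not known. Pairing correlations ran from -0.025 to 0.038 and cannot settle it.

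With 2 libraries a group and a common biological coefficient of variation of 109%, changes of the scattered chains (Il6st, Il12rb1, Ifngr2) were not detectable unless very large.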
